A study of Homo sapiens with 20 samples.

Results

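The 44 genes described here are interferon-stimulated genes, listed by symbol and looked up among the 78932 genes of a count table from OPM2 cells, a human multiple myeloma cell line grown in culture. All 44 symbols were found. Of these, 35 had enough reads to be tested, and 9 did not pass the filter on low counts (HERC5, IFITM1, IFITM2, IFITM3, TRIM22, CMPK2, PARP12, IFI44L and XAF1). The list was drawn up from what the genes are known for, not from a measured threshold, but with earlier results of these data known. The shares of members below carry that limit.

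Interferon-stimulated genes are the output of a signalling relay. An interferon binds its receptor, the JAK1 and TYK2 kinases phosphorylate STAT proteins, and STAT2 joins IRF9 in a complex that binds the interferon-stimulated response element in gene promoters. The products sense foreign RNA, block viral entry and copying, or tag and untag proteins with the ubiquitin-like protein ISG15. Histone deacetylases remove acetyl groups from histones and other proteins, and their inhibitors change the expression of many genes in myeloma cells.

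Cells received panobinostat at 10 nM, romidepsin at 10 nM or ricolinostat at 100 nM and were collected after 2, 5 or 20 h. Cells given DMSO, the solvent, were the controls. By structure, romidepsin is a cyclic depsipeptide, whereas the other compounds are hydroxamic acids. Each of the 10 groups had 2 libraries, described as independent biological replicates. All groups share the same cell line, so nothing here speaks to other myeloma cells. The treatment field of the ricolinostat samples gives 10 nM, whereas their names and the protocol give 100 nM, which is the dose used here. The labels give no collection time for DMSO, so time in culture and the inhibitor cannot be told apart in any comparison with it. The 2 DMSO libraries are shared by all 9 comparisons with DMSO, which are therefore not independent of each other.

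Library totals ran from 17264640 to 29088868 counts. The labels name no batch. Levels below are CPM, read counts scaled to the library total after TMM normalisation, replicate 1 before replicate 2, and are not compared between genes because they are not per length. Changes are log2 fold changes ± SE from 1 edgeR quasi-likelihood fit to all 20 libraries (n = 2 per group), with Benjamini-Hochberg adjustment over 20957 genes and a threshold of 0.05. The 12 plasma cell and myeloma markers checked were all tested, and their summed level was 12083 to 12109 CPM in DMSO. This sum includes FGFR3 and NSD2, whose group means reached 3535 and 2794 CPM. At 20 h this sum was 1588 to 1590 CPM with panobinostat, 3035 to 3057 with romidepsin and 10118 to 10185 with ricolinostat. Singly, 0, 1 and 1 of the 12 rose and 12, 11 and 10 fell in these groups. Of all tested genes 40.8%, 38.6% and 14.7% rose there, and 32.3%, 29.9% and 16.4% fell. Marker lists of other cells moved as well. The T and NK cell sum was 0.149 to 0.212 CPM in DMSO, and at 20 h it was 0.872 to 0.939 with panobinostat, 1.01 to 1.59 with romidepsin and 0.471 to 0.499 with ricolinostat. Myeloid markers summed to 0.508 to 0.745 CPM in DMSO, 7.67 to 7.76 at 20 h of panobinostat and 2.71 to 3.08 at 20 h of romidepsin, with S100A8 and S100A9 at 0 in these groups. Stromal markers summed to at most 0.0745 CPM in DMSO, 35.4 to 37.1 with panobinostat and 26.9 to 29 with romidepsin at 20 h, nearly all of it COL1A1. Markers of plasmacytoid dendritic cells summed to 24.5 to 27.7 CPM in DMSO, and at 20 h to 16.1 to 16.8 with panobinostat, 44.2 to 46.3 with romidepsin and 38.0 to 44.0 with ricolinostat, nearly all TCF4. LILRA4, a defining marker of these cells, was at 0 in DMSO, 0.626 and 0.722 CPM at 20 h of panobinostat, 0.338 and 0.742 of romidepsin and 0 of ricolinostat. CD3D, which defines T cells, had 0 counts in DMSO and at 20 h in all but 1 library, a panobinostat library with 2 counts. The part of these shifts in the results below was not tested. In bulk RNA, fewer cells with a transcript and less of it per cell cannot be told apart.

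The response element lies near the start of many of these genes, though not of all. The stretches below belong to the 4 members with the largest fitted rises at 20 h whose promoter window holds it, and show how its copies sit before the start. Sequences are from RefSeq (GRCh38.p14), read 5′ to 3′ on the gene's strand, and hold no base of an annotated exon (GENCODE 29). Capitals mark the element, searched as GAAA, any 2 bases and GAAA again, or on the other strand as TTTC, any 2 bases and TTTC again. IFI6 (chr1:27672219-27672442, minus strand) holds 3 copies, IFIT1 (chr10:89392373-89392545, plus strand) and IFIT3 (chr10:89327747-89327893, plus strand) hold 2 each, and ISG15 (chr1:1013247-1013422, plus strand) holds 2 that overlap.
IFI6: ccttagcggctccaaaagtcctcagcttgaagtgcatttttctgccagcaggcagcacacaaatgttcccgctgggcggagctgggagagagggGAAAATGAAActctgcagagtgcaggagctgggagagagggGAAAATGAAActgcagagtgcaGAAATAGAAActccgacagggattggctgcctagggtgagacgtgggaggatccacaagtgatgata
IFIT1: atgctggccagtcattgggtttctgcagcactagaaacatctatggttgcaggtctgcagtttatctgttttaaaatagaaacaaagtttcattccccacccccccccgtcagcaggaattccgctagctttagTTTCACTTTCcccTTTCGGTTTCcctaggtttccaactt
ISG15: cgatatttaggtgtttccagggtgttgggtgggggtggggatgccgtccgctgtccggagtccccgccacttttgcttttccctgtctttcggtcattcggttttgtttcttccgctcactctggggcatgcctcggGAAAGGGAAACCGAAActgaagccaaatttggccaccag
IFIT3: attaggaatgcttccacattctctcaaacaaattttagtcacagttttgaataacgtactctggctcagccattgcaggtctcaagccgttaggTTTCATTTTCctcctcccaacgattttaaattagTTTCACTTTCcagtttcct

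The copies start 156, 115 and 93 bases before the RefSeq start in IFI6, 116 and 103 before it in IFIT1, 113 and 107 before it in ISG15, and 156 and 122 before it in IFIT3. Another IFIT3 window, not printed, holds copies 94 and 51 bases before its own start. The IFIT1 and IFIT3 stretches lie within the span of LIPA on the other strand, the IFI6 stretch within that of AL445490.1 on the other strand, and the ISG15 stretch in an intron of a longer ISG15 gene model. RefSeq windows of 300 bases, from 250 before to 50 after a start, were at hand for 35 members and 27305 genes. OASL and GBP2 were among the members without a window. The element was in a window of 25 of these 35 members (71.4%) and of 1195 of 27305 genes (4.38%). A second motif, TTCNNNGAA, the core of the gamma-activated site, reads the same on both strands. It was in 9 of 35 members (25.7%) and 2560 of 27305 genes (9.38%). The response element was in 12 of 16 members with a window that rose at 20 h of panobinostat in 3 of 7 that fell and in 5 of 5 that did not pass. For romidepsin at 20 h these counts were 16 of 21, 2 of 4 and 2 of 3. Among untested members, 5 of 7 had it. Members with a window but no such letters included STAT2, IRF1, IRF9, OAS1, IFI35, SAMD9L and SP100.

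**Figure D1:**
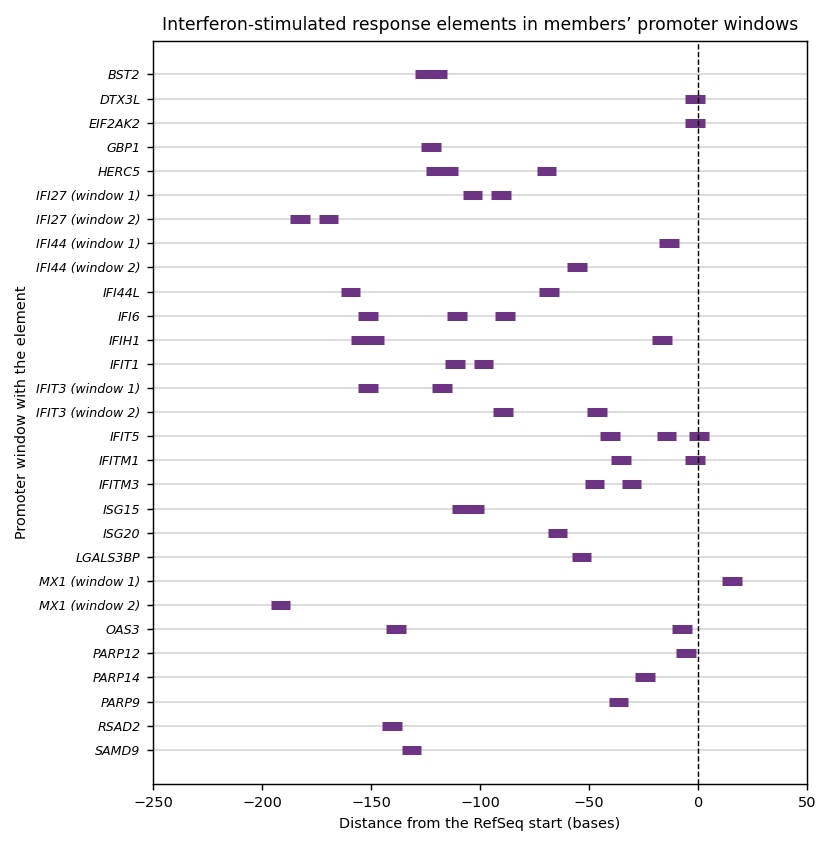
Position of each response element (purple bars) along the promoter windows that hold it, in bases from the RefSeq start (dashed line), on the gene's own strand; genes with several starts have a row for each. IFI6 has 3 elements, which begin 156, 115 and 93 bases before its start.

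Compared with DMSO, the share of members that rose was above that of all genes from 5 h of panobinostat and romidepsin and at 20 h of ricolinostat. At 2 h of panobinostat and ricolinostat it was near the share of all genes. Panobinostat raised 7 members and lowered 1 of 35 at 2 h, where 20.8% of all tested genes were higher and 18.1% lower. At 5 h it raised 20 (57.1%) and lowered 5 (14.3%), against 30.7% and 25.9% of all genes. At 20 h, 21 rose (60.0%) and 8 fell (22.9%), against 40.8% and 32.3%. The members' median log2 change was 0.39, 1.10 and 1.69 at the 3 times, where the median of all tested genes was 0.01, 0.12 and 0.25.

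Romidepsin at the same dose changed few genes of any kind at 2 h, members included. At that time it raised 3 members (8.57%) and lowered 0, where 3.55% of all genes were higher and 4.62% lower. At 5 h it raised 12 (34.3%) and lowered 1, against 13.0% and 16.5% of all genes. At 20 h, 26 members rose (74.3%) and 4 fell (11.4%), against 38.6% and 29.9%. The limit on members near 0 in DMSO holds for these shares too. The median over the tested members was 0.05, 0.49 and 2.15, or 1.95 at 20 h when genes with 6 or fewer counts in a group are placed at their bound or ratio. The median of all genes was 0.00, 0.02 and 0.22.

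Ricolinostat at 100 nM raised 6 and lowered 6 members at 2 h, where 16.9% of all genes were higher and 14.5% lower. At 5 h it raised 8 and lowered 4, against 18.8% and 15.3%, and at 20 h it raised 13 (37.1%) and lowered 3, against 14.7% and 16.4%. The median over its tested members was 0.00, -0.20 and 0.59. Scaling by library totals alone moved the median of all genes to 0.56 for panobinostat and 0.46 for romidepsin at 20 h. It also moved the share of called genes that were higher from 55.8% to 65.9% for panobinostat at 20 h, from 43.4% to 65.6% and from 44.1% to 71.3% for romidepsin at 2 and 5 h, and from 47.3% to 66.2% for ricolinostat at 20 h. At 2 h of romidepsin the count of raised members was 1 without DMSO replicate 1, romidepsin replicate 1 or romidepsin replicate 2 of that time. At 2 and 5 h of ricolinostat it was 3 without replicate 1 of the respective group, and at 5 h it was 4 without replicate 2.

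**Figure D2:**
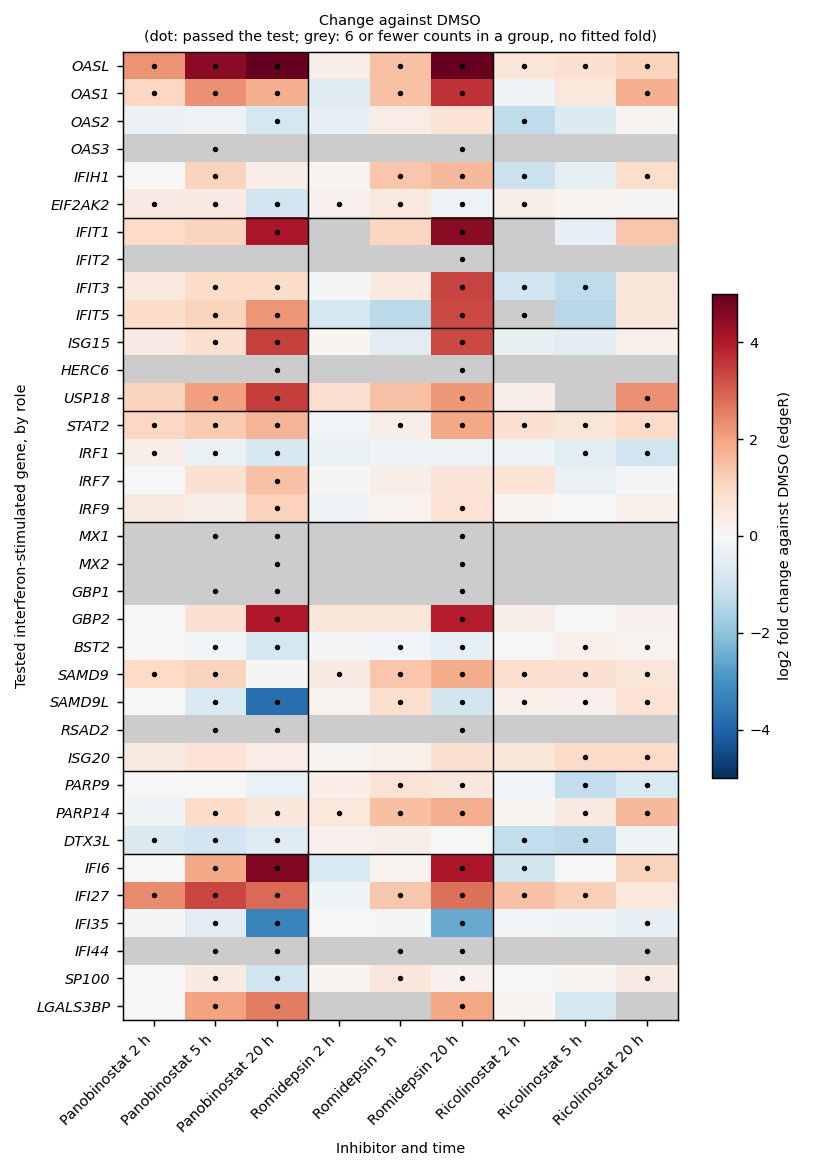
Log2 fold change against DMSO (colour, red higher and blue lower) of the 35 tested members, in rows ordered by role, for the 9 inhibitor and time groups in columns. A dot marks a change that passed the test and grey a comparison with 6 or fewer counts in a group; OASL, IFI6, ISG15 and GBP2 are deep red at 20 h of panobinostat and romidepsin, and SAMD9L and IFI35 are blue there.

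Among the transcription factors, STAT2 rose with all 3 inhibitors. STAT2 (ENSG00000170581, chromosome 12, 56341597 to 56360155) is part of the complex that binds the response element. It stood at 55.1 and 55.8 CPM in DMSO and at 117 and 114, 138 and 134, and 185 and 174 CPM after 2, 5 and 20 h of panobinostat. Romidepsin libraries held 52.5 and 48.5, 69.0 and 67.6, and 220 and 208 CPM, and ricolinostat libraries 94.3 and 93.5, 78.1 and 91.4, and 111 and 104 CPM. All libraries of panobinostat and ricolinostat lay above both DMSO libraries, whereas the 2 h romidepsin libraries lay below them. The edgeR log2 change at 20 h was 1.69 ± 0.06 (adjusted p = 2.6e-50) with panobinostat, 1.95 ± 0.06 (3.0e-55) with romidepsin and 0.95 ± 0.06 (1.3e-27) with ricolinostat. At 2 h of romidepsin it was -0.14 ± 0.06 (0.18).

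IRF9, the DNA-binding partner in that complex, was at 2.33 and 2.24 CPM in DMSO, 4.81 and 5.35 at 20 h of panobinostat and 4.35 and 3.15 at 20 h of romidepsin. The edgeR changes were 1.16 ± 0.25 (adjusted p = 2.8e-05) and 0.71 ± 0.26 (0.013). The romidepsin call was lost without DMSO replicate 1, DMSO replicate 2 or romidepsin replicate 1, at 0.69, 0.63 and 0.39. IRF7, which amplifies interferon production, stood at 1.36 and 0.932 CPM in DMSO and 3.37 and 2.92 at 20 h of panobinostat, a rise of 1.46 ± 0.35 (adjusted p = 0.00014). With romidepsin at 20 h its libraries, at 1.18 and 2.30 CPM, overlapped those of DMSO (0.63 ± 0.37, adjusted p = 0.13), or 0.86 (0.038) with library totals alone.

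IRF1, a factor that can act without STAT2, went the other way late. It stood at 14.5 and 15.7 CPM in DMSO and at 20.1 and 18.4, 12.1 and 11.8, and 9.39 and 7.85 after 2, 5 and 20 h of panobinostat. The libraries were thus above DMSO at 2 h and below it later. The edgeR changes were 0.35 ± 0.12 (adjusted p = 0.013), -0.34 ± 0.13 (0.018) and -0.82 ± 0.13 (1.1e-08), and the first was lost in 7 of 20 fits that each left out 1 library, at 0.28 without DMSO replicate 1. It was also lost with DESeq2 (adjusted p = 0.060). The second was lost with library totals alone, at -0.21 (0.16), without DMSO replicate 2, at -0.31, and without panobinostat replicate 2, at -0.35. Ricolinostat at 20 h, with 7.10 and 8.03 CPM, also lowered IRF1 (-1.0 ± 0.13, adjusted p = 5.9e-10). At 20 h of romidepsin it held 12.6 and 12.8 CPM (-0.25 ± 0.12, adjusted p = 0.065), and passed with no filter (-0.30, 0.040) and with only the groups compared (-0.30, 0.015).

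Of the 6 tested sensors of double-stranded RNA and their enzymes, 3, 5 and 2 rose and 0, 0 and 2 fell at 2, 5 and 20 h of panobinostat. With romidepsin 1, 4 and 4 rose and 0, 0 and 1 fell, and with ricolinostat 2, 1 and 3 rose and 2, 0 and 0 fell. At 20 h of panobinostat both shares were 33.3%, near those of all tested genes (40.8% and 32.3%). At 20 h of romidepsin 66.7% rose and 16.7% fell, against 38.6% and 29.9%. At 20 h of ricolinostat 50% rose, against 14.7%. At 5 h 83.3%, 66.7% and 16.7% rose with panobinostat, romidepsin and ricolinostat, against 30.7%, 13.0% and 18.8%. The 1 rise at 2 h of romidepsin was EIF2AK2 (0.21 ± 0.06, adjusted p = 0.030), lost in 14 of 20 fits without 1 library and with RLE, the scaling DESeq2 uses (0.056), no filter on low counts (0.090) and DESeq2 (0.095). OASL, a relative of the oligoadenylate synthetases that binds RNA sensors, moved most. OASL (ENSG00000135114, chromosome 12, 121019111 to 121039242) stood at 1.78 and 1.57 CPM in DMSO. Panobinostat libraries held 8.16 and 7.59, 34.8 and 39.1, and 63.0 and 61.5 CPM at the 3 times, romidepsin libraries 2.06 and 2.16, 4.73 and 4.50, and 70.5 and 65.6, and ricolinostat libraries 2.88 and 2.18, 2.96 and 2.71, and 3.68 and 3.58. Each treated library lay above both DMSO libraries. The edgeR log2 change with panobinostat was 2.23 ± 0.17 (adjusted p = 2.2e-21), 4.47 ± 0.14 (1.1e-50) and 5.22 ± 0.13 (3.7e-59). With romidepsin it was 0.34 ± 0.22 (0.44), 1.47 ± 0.19 (2.9e-10) and 5.35 ± 0.13 (7.3e-60), and with ricolinostat 0.60 ± 0.22 (0.024), 0.77 ± 0.21 (0.0018) and 1.12 ± 0.20 (2.4e-06). The 2 h ricolinostat call was lost with no filter (0.056) and only the groups compared (0.095), and in 7 of 20 fits without 1 library, at 0.30 without its own replicate 1. The 5 h call was lost without DMSO replicate 2, at 0.64, and without its own replicate 1, at 0.59.

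OAS1 makes oligoadenylates, a messenger of the antiviral state, when it meets double-stranded RNA. It stood at 0.889 and 0.745 CPM in DMSO, 1.65 and 1.72, 3.65 and 4.37, and 2.62 and 2.92 with panobinostat, and 0.614 and 0.416, 1.81 and 2.74, and 10.0 and 9.90 with romidepsin at the 3 times. Its level was thus highest in both libraries of 20 h romidepsin. The edgeR change there was 3.60 ± 0.30 (adjusted p = 3.6e-20), beside 1.76 ± 0.33 (1.0e-06) at 20 h of panobinostat and 1.79 ± 0.33 (4.9e-06) at 20 h of ricolinostat, whose libraries held 3.21 and 2.45 CPM. Panobinostat at 2 h gave 1.05 ± 0.36 (adjusted p = 0.012 in edgeR), which was lost without DMSO replicate 2 (0.90) or panobinostat replicate 2 (0.95).

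IFIH1, a cytoplasmic sensor of long double-stranded RNA, held 2.63 and 2.76 CPM in DMSO, 5.47 and 6.06 at 5 h of panobinostat and 3.21 and 3.52 at 20 h. Romidepsin libraries held 6.71 and 7.37 at 5 h and 8.36 and 8.09 at 20 h. Ricolinostat libraries were below DMSO at 2 h, with 1.22 and 1.35 CPM, and above it at 20 h, with 4.88 and 4.99. The edgeR changes at 20 h were 0.32 ± 0.23 (adjusted p = 0.20), 1.61 ± 0.21 (1.1e-10) and 0.87 ± 0.23 (0.0011) with panobinostat, romidepsin and ricolinostat, and -1.06 ± 0.27 (0.00089) at 2 h of ricolinostat. With library totals alone the panobinostat value at 20 h was 0.63 (0.011). EIF2AK2, the kinase PKR that halts translation on double-stranded RNA, was at 62.0 and 59.9 CPM in DMSO, 84.9 and 77.8 at 5 h of panobinostat and 28.4 and 34.7 at 20 h. Its edgeR change with panobinostat was 0.41 ± 0.06 (adjusted p = 2.3e-08) and then -0.94 ± 0.07 (1.6e-23). For romidepsin at 20 h it was -0.24 ± 0.07 (0.001), or 0.00 when only library totals were used for scaling. OAS2, another synthetase, fell at 20 h of panobinostat and at 2 h of ricolinostat (-0.87 ± 0.39 and -1.27 ± 0.42, adjusted p = 0.041 and 0.013 in edgeR). The first was also lost with RLE scaling (adjusted p = 0.051), library totals alone (-0.56, 0.19), no filter (0.072) and DESeq2 (0.095), and without DMSO replicate 1 (-0.85) or panobinostat replicate 2 (-0.62). The second was lost without DMSO replicate 1 (-1.19) or ricolinostat replicate 2 (-1.17). OAS3 had 2 and 0 counts in DMSO, 7 and 17 at 5 h of panobinostat and 9 and 20 at 20 h of romidepsin.

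All 4 tested IFIT genes, whose products bind foreign RNA ends, rose at 20 h of romidepsin, and 3 of 4 at 20 h of panobinostat. Of all tested genes 38.6% and 40.8% rose in these groups. With ricolinostat 0 of 4 rose at any time, and 2 at 2 h and 1 at 5 h fell, where 14.5% and 15.3% of all tested genes fell. The 2 h fall of IFIT5 was lost in 2 of 20 fits without 1 library, whose changes ran from -2.81 to -1.71. The genes lie side by side on chromosome 10, and IFIT1, IFIT2 and IFIT3 lie within the span of LIPA on the other strand. Whether the authors counted by strand is not given in the sources used here. IFIT3 (89327894 to 89340971) stood at 2.03 and 1.90 CPM in DMSO, 2.74 and 2.76, 3.59 and 3.84, and 3.05 and 4.30 with panobinostat, and 1.80 and 1.91, 2.56 and 2.97, and 21.2 and 19.6 with romidepsin at the 3 times. The step between 5 and 20 h of romidepsin stands out from all other groups. The edgeR change at 20 h was 3.37 ± 0.22 (adjusted p = 1.7e-26) with romidepsin and 0.92 ± 0.24 (0.0005) with panobinostat, the latter lost without panobinostat replicate 2, at 0.58. Ricolinostat libraries held 0.874 and 1.15, 1.04 and 0.562, and 3.42 and 2.31 CPM, lower than DMSO at 2 and 5 h (-0.95 ± 0.30 and -1.26 ± 0.32, adjusted p = 0.010 and 0.00069 in edgeR). The 2 h call was lost without ricolinostat replicate 1, at -0.85.

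IFIT5 stood at 0.508 and 0.596 CPM in DMSO, 2.15 and 2.98 at 20 h of panobinostat and 5.61 and 5.38 at 20 h of romidepsin. Its edgeR changes at 20 h were 2.21 ± 0.40 (adjusted p = 7.3e-07) and 3.30 ± 0.39 (1.1e-12). At 5 h of romidepsin it had 0.316 and 0.0927 CPM, both below DMSO (-1.37 ± 0.59, adjusted p = 0.072). IFIT1, the founder of the family, stood at 0.339 and 0.0745 CPM in DMSO and rose at 20 h to 3.40 and 3.55 with panobinostat and 4.18 and 5.19 with romidepsin (4.09 ± 0.49 and 4.52 ± 0.49, adjusted p = 1.7e-12 and 1.7e-14 in edgeR). IFIT2 had 2 and 4 counts in DMSO, 0 and 4 at 20 h of panobinostat and 34 and 32 at 20 h of romidepsin. Its ratio to DMSO there was 11 (95% counting interval 3.44 to 55.8, edgeR adjusted p = 0.00066).

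Of ISG15 and the genes of its conjugation and removal, 3 of 3 tested rose with panobinostat and with romidepsin at 20 h, and 1 of 3 with ricolinostat. Of all tested genes 40.8%, 38.6% and 14.7% rose in these groups. At 5 h of panobinostat 2 of 3 were already higher (66.7%), against 30.7% of all tested genes. The USP18 call there was lost in 2 of 20 fits without 1 library, whose changes ran from 1.42 to 3.17. ISG15 (ENSG00000187608, chromosome 1, 1001138 to 1014540) stood at 2.71 and 2.80 CPM in DMSO. It held 3.68 and 3.56, 5.87 and 4.0, and 29.9 and 28.8 CPM with panobinostat, 2.89 and 3.0, 2.33 and 1.48, and 29 and 25.1 with romidepsin, and 1.40 and 2.86, 2.00 and 1.68, and 3.21 and 3.36 with ricolinostat. The 4 libraries of panobinostat and romidepsin at 20 h lay far above all others. Their edgeR changes were 3.41 ± 0.17 (adjusted p = 9.2e-34) and 3.29 ± 0.18 (2.7e-32). At 5 h panobinostat gave 0.81 ± 0.21 (0.00054), lost without its replicate 1, at 0.51, and romidepsin -0.51 ± 0.24 (0.10).

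USP18, the protease that removes ISG15 and restrains the receptor, stood at 0.0847 and 0.298 CPM in DMSO and 1.84 and 2.59 at 20 h of panobinostat, 0.971 and 0.816 of romidepsin and 0.984 and 0.997 of ricolinostat. The edgeR changes were 3.46 ± 0.57 (adjusted p = 7.3e-08), 2.15 ± 0.62 (0.0015) and 2.30 ± 0.62 (0.0017). Without DMSO replicate 1 the romidepsin and ricolinostat calls were lost, at 1.52 and 1.71. HERC6, a relative of the ISG15 ligase, had 0 counts in both DMSO libraries, 7 and 20 at 20 h of panobinostat and 12 and 4 at 20 h of romidepsin, so at least 3.86-fold and 2.66-fold higher (edgeR adjusted p = 0.0022 and 0.007). DESeq2 passed neither (adjusted p = 0.24 and 0.28).

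Restriction factors, which block viruses inside the cell, were mixed. Of 9 tested, 1, 4 and 5 rose and 0, 2 and 2 fell at 2, 5 and 20 h of panobinostat. With romidepsin 1, 2 and 6 rose and 0, 1 and 2 fell. Ricolinostat raised 2, 4 and 4 and lowered 0 at each time. At 20 h the shares that rose were 55.6%, 66.7% and 44.4% in this order, against 40.8%, 38.6% and 14.7% of all tested genes. The shares that fell were 22.2%, 22.2% and 0%, against 32.3%, 29.9% and 16.4%. At 5 h 44.4%, 22.2% and 44.4% rose, against 30.7%, 13.0% and 18.8%. Of the 4 that rose at 5 h of ricolinostat, SAMD9L was lost in 20 of 20 fits without 1 library and ISG20 in 7. Its 2 h rise of SAMD9L was lost in 6. SAMD9 and SAMD9L, neighbours on chromosome 7 whose products limit protein synthesis and cell growth, followed different courses. SAMD9 (93099513 to 93118023) stood at 38.2 and 38.0 CPM in DMSO, 72.0 and 78.0, 84.0 and 80.3, and 37.5 and 41.9 with panobinostat, 49.0 and 51.3, 103 and 93.9, and 139 and 141 with romidepsin, and 68.4 and 69.4, 63.1 and 65.7, and 60.7 and 56.0 with ricolinostat. With panobinostat the change was 1.11 ± 0.06 at 5 h (adjusted p = 6.5e-30 in edgeR). At 20 h the libraries overlapped those of DMSO (0.06 ± 0.07, 0.39), though scaling by library totals alone gave 0.37 (4.5e-07). With romidepsin the change was 1.37 ± 0.06 at 5 h (6.5e-36) and 1.87 ± 0.06 at 20 h (1.6e-49).

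SAMD9L (93130055 to 93148369) stood at 42.5 and 44.9 CPM in DMSO, 42.2 and 47.1, 25.1 and 26.4, and 3.05 and 3.34 with panobinostat, and 48.3 and 50.2, 76.7 and 79.4, and 21.7 and 24.2 with romidepsin. Panobinostat libraries fell in steps, whereas romidepsin libraries were above DMSO at 5 h and below it at 20 h. The edgeR change at 5 and 20 h was -0.76 ± 0.08 (adjusted p = 1.2e-15) and -3.77 ± 0.10 (1.3e-57) with panobinostat, and 0.83 ± 0.07 (2.3e-19) and -0.93 ± 0.08 (9.8e-21) with romidepsin. Ricolinostat libraries at 20 h, with 71.7 and 71.9 CPM, were above DMSO (0.71 ± 0.07, adjusted p = 9.5e-16).

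GBP2, a guanylate-binding GTPase, stood at 0.254 and 0.559 CPM in DMSO, 6.18 and 7.10 at 20 h of panobinostat and 6.79 and 6.08 at 20 h of romidepsin, beside at most 0.797 in every library of 2 or 5 h. The edgeR changes at 20 h were 3.99 ± 0.36 (adjusted p = 4.0e-18) and 3.94 ± 0.36 (1.2e-17), and ricolinostat libraries at 20 h held 0.556 and 0.408 CPM. BST2, the tetherin that holds budding virus on the cell, was at 196 and 199 CPM in DMSO, 105 and 108 at 20 h of panobinostat and 148 and 152 of romidepsin (-0.89 ± 0.05 and -0.40 ± 0.04, adjusted p = 1.1e-34 and 1.1e-13 in edgeR). With ricolinostat it held 237 and 229 CPM at 5 h and 219 and 227 at 20 h (0.24 ± 0.04 and 0.18 ± 0.04, adjusted p = 4.3e-06 and 0.00078). Those calls were lost without replicate 1 at 5 h, at 0.10, and without replicate 2 at 20 h, at 0.14.

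The remaining restriction factors had few reads in DMSO. RSAD2, the enzyme viperin, had 1 and 0 counts there, 51 and 80 at 20 h of panobinostat and 45 and 53 at 20 h of romidepsin. Its ratios were 112 (95% counting interval 9.81 to 2269) and 97.6 (8.36 to 1966), with adjusted p of 4.1e-10 and 1.9e-09 in edgeR. MX1, a GTPase that traps viral nucleocapsids, had 0 counts in both DMSO libraries, 25 and 13 at 20 h of panobinostat and 24 and 20 of romidepsin, so at least 5.43-fold and 7.30-fold higher (edgeR adjusted p = 0.00011 and 3.6e-05). MX2, its nuclear-pore relative, had 6 and 0 counts in DMSO, 30 and 32 with panobinostat and 29 and 59 with romidepsin at 20 h, ratios of 8.86 (2.76 to 45.3) and 14.6 (4.68 to 73.5). GBP1 had 0 and 1 counts in DMSO, 13 and 9 with panobinostat and 22 and 13 with romidepsin at 20 h. MX2 with panobinostat lost its call without DMSO replicate 2, at 1.97. ISG20, an exonuclease, stood at 0.593 and 1.42 CPM in DMSO and 2.10 and 1.86 at 20 h of ricolinostat (0.95 ± 0.37, adjusted p = 0.039 in edgeR), a call lost with no filter (0.11) and DESeq2 (0.078) and in 4 of 20 fits without 1 library, whose changes ran from 0.47 to 1.72.

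Of the 3 tested ADP-ribosylation genes, 1, 2 and 1 rose and 1, 0 and 1 fell at 20 h of panobinostat, romidepsin and ricolinostat. Among all tested genes 40.8%, 38.6% and 14.7% rose there, and 32.3%, 29.9% and 16.4% fell. PARP9 rose at 20 h of romidepsin and fell at 20 h of ricolinostat, each call lost in 1 of 20 fits without 1 library. Only PARP14 rose at 20 h with each inhibitor. PARP14, which adds single ADP-ribose units, stood at 4.32 and 6.37 CPM in DMSO, 11.6 and 9.24 at 5 h and 8.10 and 8.03 at 20 h of panobinostat, 16.1 and 14.4 at 5 h and 19.5 and 18.6 at 20 h of romidepsin, and 17.6 and 15.2 at 20 h of ricolinostat. The edgeR changes at 20 h were 0.58 ± 0.16 (adjusted p = 0.00068), 1.82 ± 0.15 (1.2e-20) and 1.61 ± 0.15 (3.5e-16). The panobinostat call was lost without DMSO replicate 1, at 0.26. PARP9 and DTX3L, partners in an ADP-ribosylating ubiquitin ligase, overlap on opposite strands of chromosome 3 (122527924 to 122564577 and 122564238 to 122575203), so reads in the overlap may have been assigned to either gene.

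DTX3L stood at 14.8 and 13.8 CPM in DMSO, 9.01 and 8.20, 7.58 and 7.30, and 8.65 and 9.77 with panobinostat, 17.9 and 15.4, 17.2 and 18.1, and 16.4 and 13 with romidepsin, and 6.16 and 6.07, 6.85 and 4.40, and 11.3 and 12.7 with ricolinostat. All panobinostat and ricolinostat libraries were below DMSO, but the change at 20 h of ricolinostat, -0.25, did not pass. The edgeR change at 5 h was -0.94 ± 0.15 (adjusted p = 1.9e-08) with panobinostat, 0.30 (0.068; 0.43 and 0.008 with library totals alone) with romidepsin and -1.32 ± 0.15 (6.9e-13) with ricolinostat. PARP9 held 8.09 and 5.93 CPM in DMSO, 11 and 12 at 5 h of romidepsin and 3.38 and 2.53 at 5 h of ricolinostat, changes of 0.72 ± 0.16 (adjusted p = 0.00022 in edgeR) and -1.22 ± 0.19 (6.3e-08). Without DMSO replicate 2 the romidepsin value was 0.49 (adjusted p = 0.069).

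Among the other interferon-induced genes, IFI6 rose and IFI35 fell strongly at 20 h. IFI6, a small membrane protein that restrains cell death, stood at 1.82 and 1.12 CPM in DMSO, 1.84 and 1.11, 5.75 and 5.24, and 34.7 and 36.5 with panobinostat, and 0.526 and 1.17, 1.54 and 1.72, and 24.4 and 24.8 with romidepsin. Both 20 h groups lay far above DMSO, as for ISG15, and with panobinostat the 5 h libraries were already above it. The edgeR change at 20 h was 4.61 ± 0.20 (adjusted p = 2.3e-36) with panobinostat, 4.08 ± 0.20 (4.2e-32) with romidepsin and 1.13 ± 0.26 (0.00023) with ricolinostat, whose libraries held 4.11 and 2.22 CPM. The ricolinostat value was 0.61 (adjusted p = 0.18) without its replicate 1.

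IFI27, a relative of IFI6, came earlier with panobinostat. It stood at 0.805 and 0.857 CPM in DMSO, 5.00 and 3.60, 8.72 and 8.17, and 6.26 and 5.71 with panobinostat, 0.745 and 0.708, 2.17 and 2.09, and 5.57 and 5.64 with romidepsin, and 2.62 and 2.02, 1.5 and 2.34, and 1.07 and 1.36 with ricolinostat. Panobinostat and ricolinostat libraries were all above DMSO from 2 h, and romidepsin libraries from 5 h. The edgeR changes at 2 h were 2.35 ± 0.29 (adjusted p = 1.5e-11) with panobinostat, -0.20 with romidepsin, which did not pass, and 1.47 ± 0.31 (5.3e-05) with ricolinostat. At 20 h they were 2.84 ± 0.28 (1.4e-16), 2.74 ± 0.28 (1.6e-15) and 0.54 (0.26).

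IFI35, a regulator of innate signalling, fell. It stood at 20.5 and 20.5 CPM in DMSO, 19.6 and 19.7, 15.5 and 13.1, and 2.19 and 1.95 with panobinostat, and 19.1 and 21.0, 18.6 and 19.3, and 4.09 and 3.04 with romidepsin. The edgeR change at 20 h was -3.31 ± 0.15 (adjusted p = 4.1e-39), -2.53 ± 0.14 (3.3e-32) and, with ricolinostat at 15.2 and 15.9 CPM, -0.40 ± 0.11 (0.0028). SP100, a nuclear body protein, stood at 17.9 and 20.2 CPM in DMSO, 25.7 and 25.0 at 5 h and 9.20 and 9.62 at 20 h of panobinostat, and 28.9 and 27.5 at 5 h and 22.4 and 21.8 at 20 h of romidepsin. Panobinostat raised it at 5 h (0.41 ± 0.10, adjusted p = 0.0002) and lowered it at 20 h (-1.01 ± 0.11, 5.4e-15), by edgeR. The romidepsin value at 20 h, 0.21 ± 0.10 (0.046), was lost in 20 of 20 fits without 1 library.

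IFI44 had 0 and 2 counts in DMSO, 55 and 87 at 20 h of panobinostat, 51 and 44 of romidepsin and 6 and 9 of ricolinostat. Its ratios were 60.9 (95% counting interval 10.6 to 2439), 47.3 (8.18 to 1927) and 8.33 (1.19 to 394), with adjusted p of 1.6e-10, 2.7e-09 and 0.018 in edgeR, the last lost in 2 of 20 fits without 1 library. LGALS3BP, a secreted galectin-binding glycoprotein, stood at 0.339 and 0.224 CPM in DMSO, 1.49 and 1.83 at 20 h of panobinostat and 1.10 and 1.04 of romidepsin (2.56 ± 0.62 and 1.92 ± 0.64, adjusted p = 0.00015 and 0.006 in edgeR). Its romidepsin call was lost without DMSO replicate 2, at 1.60.

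**Figure D3:**
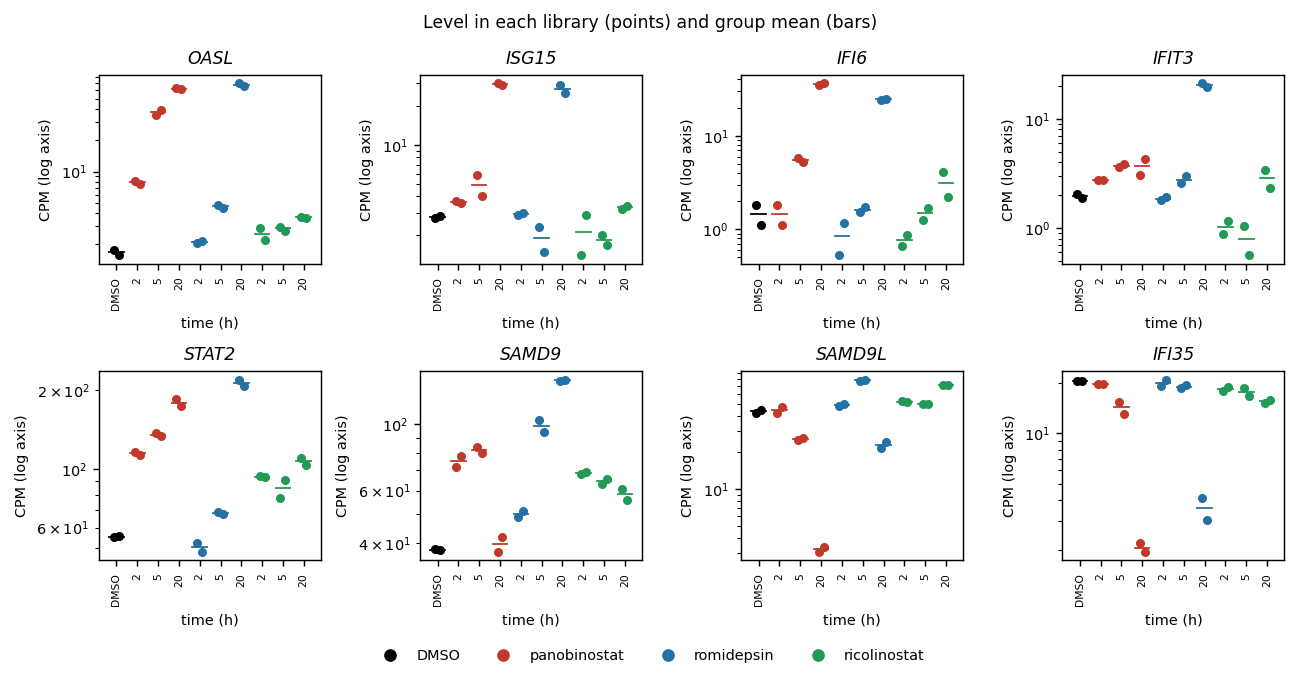
CPM on log axes in each library (points) with the group mean (bars) for 8 members, over DMSO and the 3 times of each inhibitor. ISG15, IFI6 and IFIT3 step up between 5 and 20 h of romidepsin, and SAMD9L falls to 3.05 and 3.34 CPM at 20 h of panobinostat.

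Romidepsin and panobinostat were compared directly, at 10 nM each, at 3 matched times. At 2 and 5 h the members below panobinostat made up a share near that of all genes, though a few of them differed several-fold. At 20 h the share of members above panobinostat was well over that of all genes. At 2 h, 2 members were higher with romidepsin and 9 lower (25.7%), against 17.3% and 19.8% of all tested genes. At 5 h, 6 were higher (17.1%) and 10 lower (28.6%), against 24.8% and 25.9%. At 20 h, 17 were higher (48.6%) and 3 lower, against 23.4% and 18.3%. The members' median difference was -0.30, -0.43 and 0.57. At 20 h the count of lower members was 1 without panobinostat replicate 2 or romidepsin replicate 1.

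OASL, STAT2, IFI27, IFIT5 and OAS1 were all lower with romidepsin at 2 h and at 5 h. For OASL the edgeR difference was -1.89 ± 0.17 (adjusted p = 4.9e-18) at 2 h and -3.0 ± 0.12 (5.2e-42) at 5 h. At 20 h it was 0.13 ± 0.08 (0.24; 95% interval -0.04 to 0.30). For STAT2 it was -1.19 ± 0.06 (4.5e-35), -0.99 ± 0.06 (1.1e-30) and 0.25 ± 0.05 (9.6e-06). For IFI27 it was -2.55 ± 0.30 (3.3e-12), -1.98 ± 0.24 (5.4e-12) and -0.09 (95% interval -0.52 to 0.33). OAS1 and IFIT5 crossed over, from -1.71 ± 0.39 (adjusted p = 0.00016) and -1.79 ± 0.51 (0.0025) at 2 h to 1.84 ± 0.25 (3.9e-10) and 1.09 ± 0.32 (0.0031) at 20 h. The 2 h value of IFIT5 was -1.31 (0.095) without romidepsin replicate 1, and the 20 h value 0.91 (0.081) without panobinostat replicate 1. The 5 h value of OAS1, -0.84 ± 0.28 (0.0085), was -0.55 (0.20) without romidepsin replicate 1.

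At 20 h SAMD9L differed most among members with a fitted fold, by 2.84 ± 0.11 (adjusted p = 3.7e-43 in edgeR). It had been higher with romidepsin at 5 h too, by 1.60 ± 0.07 (4.4e-37). IFIT3 was higher by 2.46 ± 0.20 (5.0e-20), SAMD9 by 1.81 ± 0.06 (4.1e-48), OAS2 by 1.54 ± 0.37 (0.00033), IFIH1 by 1.28 ± 0.21 (6.4e-08) and SP100 by 1.23 ± 0.11 (5.5e-19). IFIT2 had a ratio of 19.2 (95% counting interval 4.90 to 165). All 3 tested ADP-ribosylation genes were higher with romidepsin at 20 h: PARP14 by 1.24 ± 0.14 (adjusted p = 3.0e-13), PARP9 by 0.88 (3.3e-06) and DTX3L by 0.66 (1.8e-05). Of all tested genes 23.4% were higher in this comparison.

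The 3 members lower with romidepsin at 20 h were USP18 (-1.31 ± 0.47, adjusted p = 0.016 in edgeR), IRF7 (-0.83 ± 0.33, 0.035) and IFI6 (-0.54 ± 0.14, 0.001). USP18 and IRF7 each lost the call in 3 of 20 fits without 1 library, IRF7 also with no filter (0.081) and DESeq2 (0.11), and USP18 was at -1.05 (0.21) without panobinostat replicate 2. For several of the strongest late rises no difference between the compounds was detected. The interval for ISG15 was -0.39 to 0.15 around -0.12, for GBP2 -0.57 to 0.47 around -0.05, and for IFIT1 -0.24 to 1.10 around 0.43. These intervals allow differences of up to those bounds and do not show equal action. Ricolinostat was given at another dose, so its values above stand beside the others without a test.

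**Figure D4:**
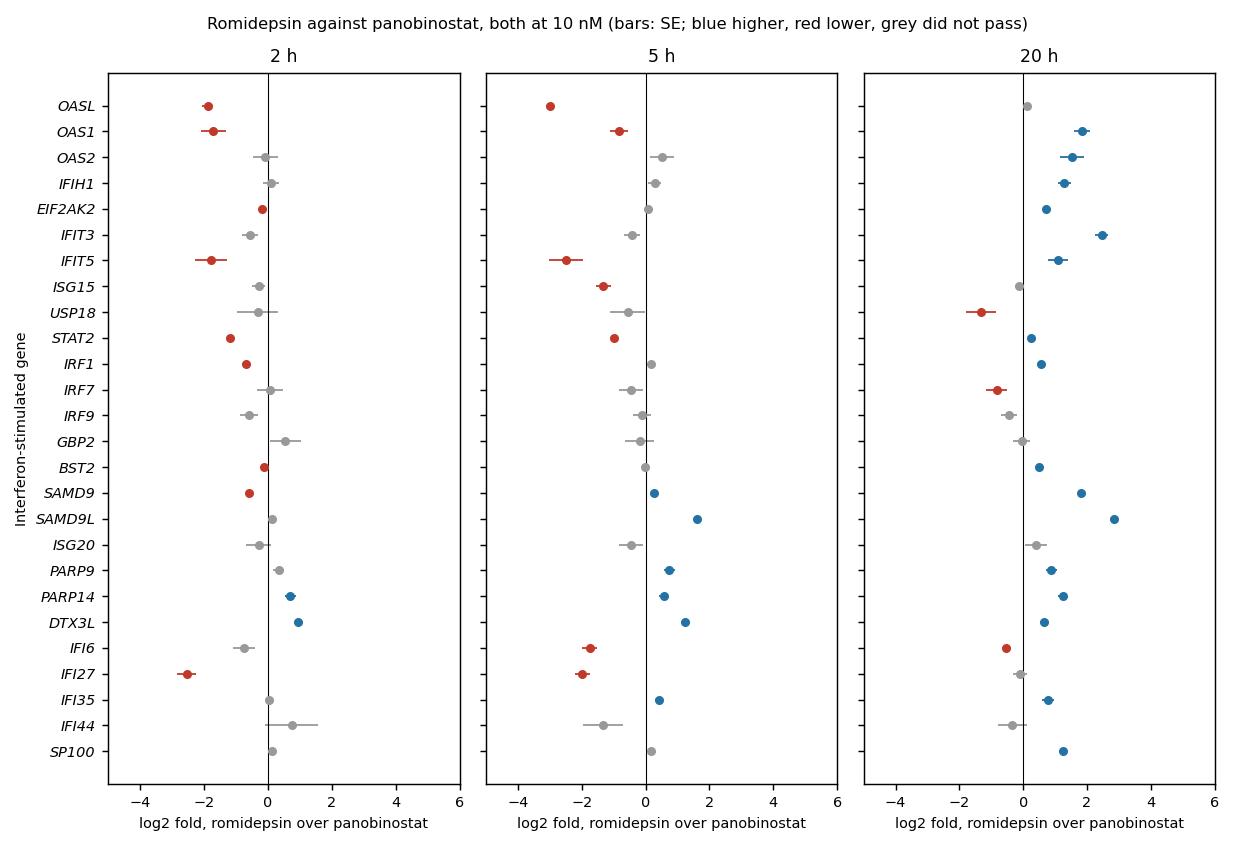
Log2 fold of romidepsin over panobinostat, both at 10 nM, with SE bars, for members with a fitted fold at 2, 5 and 20 h (panels); blue points are higher with romidepsin, red lower, and grey did not pass. OASL moves from -1.89 and -3.0 at 2 and 5 h to 0.13 at 20 h, and SAMD9L reaches 2.84.

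Within each inhibitor, successive times were compared directly in the same fit, where the DMSO libraries enter only through the scaling, the filter and the shared spread. With panobinostat 13 members rose (37.1%) and 4 fell from 2 to 5 h, against 19.8% and 22.2% of all tested genes. From 5 to 20 h, 12 rose (34.3%) and 10 fell (28.6%), against 27.5% and 28.9%. With romidepsin 11 rose (31.4%) and 0 fell from 2 to 5 h, against 8.40% and 11.9%, and 19 rose (54.3%) and 5 fell (14.3%) from 5 to 20 h, against 33.4% and 29.4%. With ricolinostat 1 rose and 3 fell from 2 to 5 h, against 6.69% and 8.58%, and 15 rose (42.9%) and 1 fell from 5 to 20 h, against 17.2% and 20.7%. Scaling by library totals alone moved the share of called genes that were higher from 47.2% to 62.7%, 48.8% to 60.6%, 41.4% to 65.0% and 43.8% to 60.6% for panobinostat from 2 to 5 h and from 5 to 20 h, romidepsin from 2 to 5 h and ricolinostat from 2 to 5 h.

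The timing differed by gene. OASL rose with panobinostat mostly before 5 h, by 2.24 ± 0.11 from 2 to 5 h (adjusted p = 2.5e-34 in edgeR) and 0.75 ± 0.09 after it (2.0e-12). With romidepsin it rose mostly after 5 h, by 1.13 ± 0.18 (6.1e-07) and then 3.88 ± 0.12 (2.2e-53). ISG15 rose after 5 h with both, by 2.60 ± 0.17 (1.1e-26) with panobinostat and 3.80 ± 0.19 (1.4e-34) with romidepsin. IFIT3 had a fitted change of 0.00 between 5 and 20 h of panobinostat, which did not pass, and it rose by 2.88 ± 0.21 (4.7e-23) with romidepsin and by 1.81 ± 0.30 (3.2e-07) with ricolinostat. SAMD9L fell by 3.0 on the log2 scale (SE 0.11, 1.3e-45) with panobinostat and by 1.76 (SE 0.07, 2.3e-41) with romidepsin over the same interval. IFI27 rose by 1.39 with romidepsin over this interval. With panobinostat it had -0.50 (0.038), a call lost with RLE, library totals alone (-0.32), no filter and DESeq2, and in 4 of 20 fits without 1 library.

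A list of 61 genes upstream of or around the response was read alongside, of which 39 were tested. At 20 h panobinostat raised 15 and lowered 22 of these, romidepsin raised 16 and lowered 23, and ricolinostat raised 8 and lowered 9. The shares that rose (38.5%, 41.0% and 20.5%) were near those of all tested genes (40.8%, 38.6% and 14.7%), and the shares that fell were 56.4%, 59.0% and 23.1% against 32.3%, 29.9% and 16.4%. Their median log2 change was -0.90, -0.54 and 0.02. The interferon genes themselves had few reads. Of 21 listed, 10 had 0 counts in all libraries, and the summed level of all was 0.720 to 1.12 CPM in DMSO. It was 0.196 to 0.210 at 20 h of panobinostat and 1.54 to 2.27 at 20 h of ricolinostat. With romidepsin it was 1.91 to 2.37, 1.97 to 2.69 and 0.464 to 0.779 at 2, 5 and 20 h. IFNB1 had 2 counts over all 20 libraries. IFNG, the 1 interferon tested, stood at 0.678 and 1.01 CPM in DMSO, 1.81 and 2.36 at 5 h of romidepsin and 0.211 and 0.223 at 20 h (1.29 ± 0.45 and -1.94 ± 0.59, adjusted p = 0.021 and 0.0027 in edgeR). The rise was lost with no filter (0.055) and in 2 of 20 fits without 1 library. IFNG was also called lower at 20 h of panobinostat, whereas its change of 0.98 at 20 h of ricolinostat did not pass.

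Of 6 receptor genes, 5 fell (83.3%) and 1 rose at 20 h of panobinostat and of romidepsin, where 32.3% and 29.9% of all tested genes fell. IFNAR1, a chain of the type I receptor, stood at 83.6 and 86.5 CPM in DMSO, 42.5 and 47.0 with panobinostat and 54.7 and 61.4 with romidepsin (-0.92 ± 0.06 and -0.55 ± 0.06, adjusted p = 4.5e-26 and 8.3e-14 in edgeR). IFNAR2, the other chain, stood at 24.9 and 22.9, 5.44 and 4.15, and 7.93 and 8.46 CPM (-2.33 ± 0.13 and -1.54 ± 0.12, 1.0e-31 and 2.2e-21). IFNLR1, of the type III receptor, stood at 113 and 108, 14.1 and 14.6, and 61.5 and 63.5 CPM (-2.94 ± 0.07 and -0.82 ± 0.06, 3.4e-63 and 2.8e-24). IFNGR2 and IL10RB also fell, by 3.15 (SE 0.32) and 1.88 (SE 0.25) with panobinostat. With ricolinostat at 20 h 0 of 6 fell and 2 rose (33.3%), where 16.4% of all tested genes fell and 14.7% rose. The rise of IFNGR1 was lost in 1 of 20 fits without 1 library. IFNAR1 and IFNAR2 held 83.3 and 76.1, and 24.8 and 26.8 CPM there.

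JAK1, a kinase bound to the receptors, rose with panobinostat and romidepsin at 20 h and fell with ricolinostat, where STAT2 rose. It stood at 140 and 137 CPM in DMSO, 185 and 198 with panobinostat, 223 and 218 with romidepsin and 125 and 117 with ricolinostat. Its edgeR changes were 0.46 ± 0.05, 0.67 ± 0.05 and -0.20 ± 0.05 (adjusted p = 4.3e-16, 5.0e-25 and 0.00036). TYK2 rose with panobinostat (0.46 ± 0.05, 4.2e-15). Its romidepsin value of -0.12 ± 0.05 (0.025) was 0.12 when only library totals were used for scaling and did not pass with RLE (0.089) or DESeq2 (0.12). JAK2, used by the interferon gamma receptor, fell by 1.31 (SE 0.12, 3.9e-17) with panobinostat and by 0.86 (SE 0.12, 6.6e-10) with romidepsin.

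Among 13 tested sensors and adaptors, 3 rose (23.1%) and 8 fell (61.5%) at 20 h of panobinostat, against 40.8% and 32.3% of all tested genes. With romidepsin 5 rose (38.5%) and 8 fell (61.5%), against 38.6% and 29.9%. With ricolinostat 4 rose (30.8%) and 2 fell (15.4%), against 14.7% and 16.4%. DHX58, a regulator of RNA sensing that is itself interferon-induced, stood at 0.254 and 0.298 CPM in DMSO, 8.92 and 8.33 with panobinostat and 3.25 and 3.49 with romidepsin (4.93 ± 0.40 and 3.58 ± 0.42, adjusted p = 5.2e-21 and 1.1e-12 in edgeR). The DNA sensor CGAS stood at 27.2 and 27.7, 2.97 and 2.68, and 6.63 and 5.93 CPM in these groups, and fell by 3.29 (SE 0.13) and 2.13 (SE 0.11). Its adaptor STING1 stood at 29.8 and 31.5, 3.87 and 3.97, and 14.2 and 12.7 CPM, and fell by 2.96 (SE 0.11) and 1.19 (SE 0.10). ZBP1, a sensor of Z-form nucleic acid, fell by 4.37 (SE 0.24) and 1.52 (SE 0.18) with these and rose with ricolinostat (0.76 ± 0.15, adjusted p = 2.6e-05).

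Of the 7 brakes on the pathway, 3 rose (42.9%) and 4 fell (57.1%) at 20 h of panobinostat and of romidepsin. Of all tested genes 40.8% and 38.6% rose there, and 32.3% and 29.9% fell. PTPN6, a phosphatase that acts on JAK kinases, stood at 119 and 118 CPM in DMSO, 2.43 and 2.65 with panobinostat, 8.06 and 7.57 with romidepsin and 73.1 and 77.5 with ricolinostat, and fell by 5.54 (SE 0.09, adjusted p = 1.7e-76 in edgeR) with panobinostat. SOCS1, an inhibitor of JAK kinases, rose to 7.83 and 8.63 and to 7.81 and 7.08 CPM from 1.02 and 0.969 in DMSO (3.05 ± 0.29 and 2.90 ± 0.29, 2.4e-17 and 5.5e-16). SOCS3, of the same family, was higher with romidepsin, at 16.8 and 16.0 CPM, than with panobinostat, at 3.87 and 2.89 (difference 2.29). Its panobinostat change against DMSO, 0.72 ± 0.26, did not pass without DMSO replicate 2 (0.25) or panobinostat replicate 1 (0.43). Among the kinases and factors that switch interferon genes on, TRAF3 fell by 2.61 (SE 0.09) and 2.41 (SE 0.09). Both tested ISG15-conjugating genes rose at 20 h of panobinostat and of romidepsin, where 40.8% and 38.6% of all tested genes rose. UBA7, the activating enzyme for ISG15, stood at 0.593 and 0.410 CPM in DMSO, 12.9 and 11.8 with panobinostat and 6.25 and 5.56 with romidepsin (4.62 ± 0.29 and 3.56 ± 0.30, 1.8e-28 and 1.4e-19). UBE2L6, the conjugating enzyme, also rose with ricolinostat (1.80 ± 0.17), where ISG15 held 3.21 and 3.36 CPM and did not pass.

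**Figure D5:**
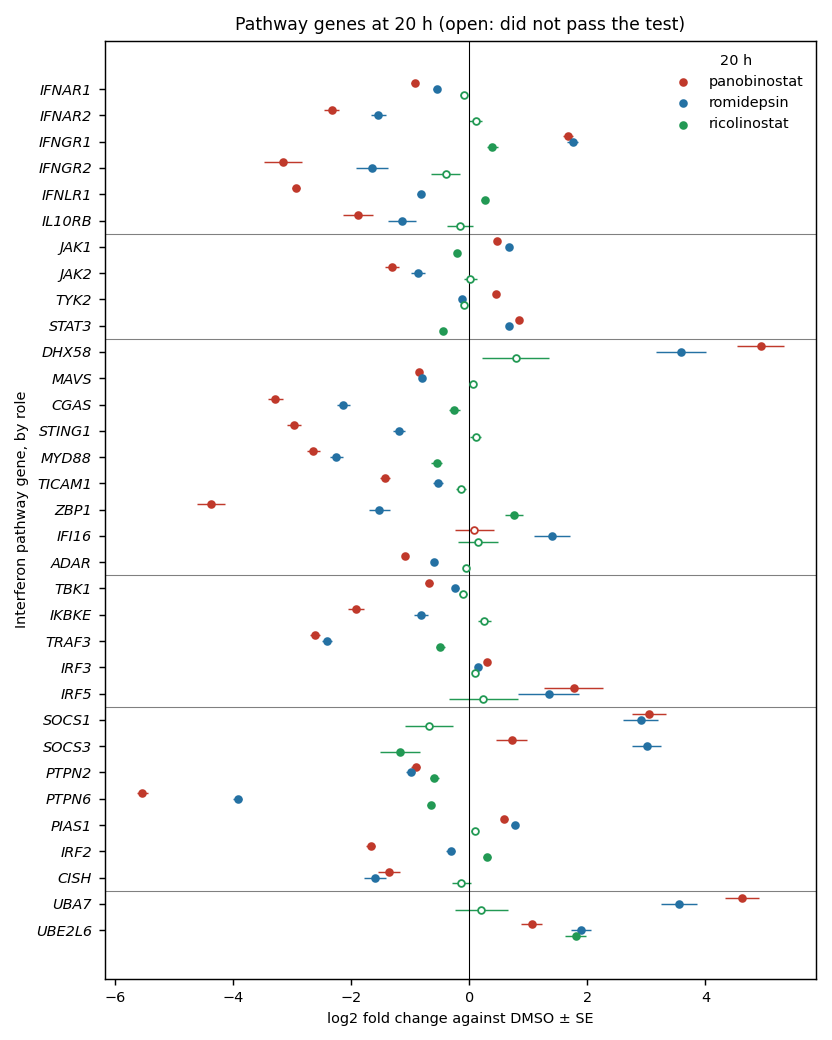
Log2 fold change against DMSO at 20 h, with SE bars, for interferon pathway genes reported here that had a fitted fold for all 3 inhibitors, in order of role; open points did not pass the test. Receptor genes other than IFNGR1 lie left of 0 with panobinostat and romidepsin, and DHX58, SOCS1 and UBA7 lie to the right.

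The 9 untested members stayed at or near 0 in all groups. CMPK2, a mitochondrial nucleotide kinase that neighbours RSAD2, had 0 counts in every library. HERC5, the main ISG15 ligase, and IFITM2 and IFITM3, which block viral entry, had at most 2 counts in a library, and XAF1 at most 4. IFITM1 reached 7 and 5 counts, PARP12 9 and 4, and IFI44L 7 and 7 at 20 h of panobinostat, and TRIM22 reached 9 and 8 there. The IFITM genes are near-identical neighbours, so their reads may be shared or lost in counting. These genes did not pass the filter on low counts and were not tested, so whether they changed was not determined.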

How the data were processed

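RNA was selected by its poly(A) tail and sequenced as strand-specific pairs of 100-base reads, per the labels' protocols. The authors aligned reads with HISAT2 to GRCh38, handled them with SAMtools and counted them per gene with featureCounts, per the submitters' processing notes, and deposited 1 table of raw counts for 20 libraries. Versions, annotation release and strand setting: not given in the sources used here. Among the deposited counts, values of 2 (76134) outnumber values of 1 (43567), and 60.3% of values from 1 to 10 are even against 49.7% from 51 to 200. A read pair was therefore taken to give 2 counts as a rule, an assumption, since the pair setting is not given. On it, the floor below which no fold was fitted was 3 read pairs, or 6 counts over a group's 2 libraries. Bounds against 0 use that floor, and 95% counting intervals are exact on the assumed read pairs. Both cover counting error only.

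Counts were tested with edgeR 4.0.16 (R 4.3.3, with limma 3.58.1 as its base): filterByExpr with a minimum count of 10, TMM scaling (factors 0.925 to 1.16), 1 term per group, robust quasi-likelihood F test, two-sided, and Benjamini-Hochberg adjustment over 20957 genes within each comparison. The SE is the absolute log2 change over the square root of F. The biological coefficient of variation was 0.0419. The fit was tested on simulated counts. Nothing beyond the term biological replicates says that cultures were handled apart, so p-values measure the spread between these libraries.

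Alternatives were DESeq2 1.42.0, its size-factor scaling (RLE) in edgeR, library totals alone, no filter, only the groups compared, a replicate block and each library left out. The members and lists were chosen with earlier results of these data known. Per-library values are given for members whose mean was 5 CPM or more in some group and that passed against DMSO with an absolute log2 change of at least 1, at most 4 a role, and always for the transcription factors and OASL. Other members appear by counts or extremes, and some were given more values than this rule asks after their values were seen. Pathway genes followed the same limits at 20 h, with JAK1, TYK2, IFNAR1 and IFNAR2 always named, and some are not reported here. Promoters shown are those with the largest fitted rises. Gene positions are from GENCODE 29 (GRCh38).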

Additional observations from a re-analysis of the deposited data

Results flagged for a closer look

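Several genes passed the test in opposite directions in 2 groups, with the difference between the groups also past the threshold in edgeR. Among interferon-stimulated genes, SAMD9L differed between romidepsin and panobinostat at 5 h by 1.60 (log2, romidepsin higher) and SP100 at 20 h by 1.23, the latter resting on a romidepsin value that was lost in 20 of 20 fits without 1 library. Between 5 and 20 h, EIF2AK2 changed by -1.35 with panobinostat and -0.72 with romidepsin, SAMD9L by -1.76 with romidepsin and SP100 by -1.42 with panobinostat. IRF1 changed by -0.69 between 2 and 5 h of panobinostat, but its 2 h rise was lost in 7 of 20 fits without 1 library and with DESeq2, and its 5 h fall in 2 and with library totals alone (-0.21). The opposite sign of EIF2AK2 at 20 h of romidepsin did not hold when only library totals were used for scaling.

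Among pathway genes, romidepsin minus panobinostat was 1.05 for CGAS at 2 h, 2.98 for IFNG and -0.91 for STAT3 at 5 h, and -0.58 for TYK2 at 20 h, whose romidepsin sign turned under that scaling. From 5 to 20 h of romidepsin the change was -3.23 for IFNG, 1.05 for STAT3 and -0.48 for TBK1, whose sign at 20 h also turned. From 2 to 5 h of panobinostat it was -0.77 for TICAM1 and -1.29 for CISH. The 2 h rise of TICAM1 was lost in 9 of 20 fits without 1 library (0.17 to 0.25 over all) and with RLE and DESeq2. From 5 to 20 h of ricolinostat it was -0.61 for STAT3, 0.70 for IFNLR1, 1.71 for ZBP1 and 0.49 for IRF2. The 5 h rise of STAT3 was lost in 8 of 20 fits without 1 library (0.05 to 0.15 over all) and with RLE, no filter and DESeq2, and the 5 h fall of IRF2 in 1 and with library totals alone (-0.16). The 5 h values of IFNG were each lost in 2 of 20 fits, and its romidepsin rise also with no filter.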

How the results depend on the processing

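Of 54 counts of raised or lowered members and pathway genes, 53 stayed within 1.5 times with RLE scaling, 49 with library totals alone, 51 with no filter, 50 with DESeq2 and 53 with only the groups compared. For members, library totals alone gave 3 lower at 5 h of panobinostat (5 in the edgeR fit as reported), 0 lower at 5 h of romidepsin (1), and 2 higher and 1 lower from 2 to 5 h of ricolinostat (1 and 3). DESeq2 and only the groups compared each gave 1 lower at 2 h of romidepsin (0). DESeq2 and no filter each gave 5 higher at 5 h of ricolinostat (8), and DESeq2 gave 2 higher from 2 to 5 h of ricolinostat. For pathway genes raised, no filter gave 2 at 2 h of romidepsin (4), library totals alone 15 at 5 h of romidepsin (8), and RLE, no filter and DESeq2 each 7 at 5 h of ricolinostat (11). The cause was not tested. With library totals alone the change turned sign for EIF2AK2 (0.00017), TBK1 (0.0014) and TYK2 (0.12) at 20 h of romidepsin.

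Without 1 library, members raised ranged from 1 to 3 at 2 h of romidepsin, from 3 to 6 at 2 h and 3 to 7 at 5 h of ricolinostat, and from 1 to 2 from 2 to 5 h of ricolinostat. Members lowered ranged from 0 to 3 at 2 h of romidepsin (3 without ricolinostat 5 h replicate 1) and 0 to 3 at 5 h (3 without romidepsin replicate 1), and from 4 to 7 at 5 h of ricolinostat (7 without panobinostat 2 h replicate 2 or either ricolinostat 2 h library). They ranged from 1 to 3 for romidepsin against panobinostat at 20 h, from 0 to 1 from 2 to 5 h of romidepsin, from 1 to 3 from 2 to 5 h of ricolinostat (1 without 2 h replicate 1) and from 0 to 1 from 5 to 20 h of ricolinostat. Pathway genes raised ranged from 1 to 4 and 5 to 9 at 2 and 5 h of romidepsin, and from 4 to 11, 5 to 11 and 5 to 8 at 2, 5 and 20 h of ricolinostat, and those lowered at 5 h of ricolinostat from 7 to 11.

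Replicate numbers did not pair the libraries: same-numbered libraries' deviations correlated between -0.0248 and 0.0347 over 45 pairs of groups. A replicate block moved 0 of 54 counts by over 1.5 times and gave 153088 calls over all genes and comparisons against 154148 without it. With the block, SP100 at 20 h of romidepsin missed the threshold, at 0.21 (adjusted p = 0.069). Members with 6 or fewer counts in DMSO are limited by depth, as their counting intervals show.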
